A study of Macaca mulatta with 252 samples.

Results

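The genes described here are 59 synaptic and neuronal adhesion molecules of the rhesus macaque, chosen by symbol from the 14133 genes that the array's annotation names with a single symbol per probe set. The rule took every gene whose symbol begins with NRXN, NLGN, LRRTM, SLITRK, CNTN, CNTNAP, LINGO, FLRT, CADM, TENM, ADGRL, LRFN, IGSF or NCAM followed by a number, or with LRRC4, apart from CNTN5. Matching by symbol used no measured value, except that a gene with several probe sets was read from the one with the highest mean. The rule itself, with CNTN5 left out by name, was set with earlier results of these data known. The LRRC4 pattern also caught 7 genes by name only (LRRC40, LRRC41, LRRC42, LRRC43, LRRC45, LRRC47 and LRRC49), which carry leucine-rich repeats but are not members of the LRRC4 adhesion family. They are counted with the set and named where they changed.

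The samples came from adult macaques that received no experimental treatment. Laser microdissection took 10 neocortical areas layer by layer, the dentate gyrus (DG) and the CA1, CA2 and CA3 fields of the hippocampus, and magnocellular, parvocellular and koniocellular parts of the thalamic relay for vision, the lateral geniculate nucleus (LGN). The areas were primary auditory (A1), primary somatosensory (S1), primary motor (M1), dorsolateral prefrontal (DLPFC), orbitofrontal (OFC), anterior cingulate (ACG), middle temporal (MT) and temporal (TE) cortex and the visual areas V1 and V2. The 225 arrays formed 57 groups, 54 of them with 4 arrays and 3 with 3 arrays, from 3 males and 3 females. Each dissected patch holds several cell types, so fewer cells of a type and less RNA per cell cannot be told apart.

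Each array was compared with the average of its own group, with a Pearson r of 0.983 at the median and 0.941 at the lowest, and 5 arrays lay below 0.95. The excitatory neuron markers SLC17A7, CAMK2A, NEUROD6 and TBR1 averaged 7.70 in neocortex (lowest animal 7.63, highest 7.76), 8.43 in hippocampus (8.36 to 8.51) and 5.97 in the LGN (5.92 to 6.04), while 3 oligodendrocyte markers averaged 10.68 (10.50 to 10.88), 9.96 (9.80 to 10.07) and 11.66 (11.59 to 11.75). The 5 inhibitory neuron markers measured averaged 8.59 in neocortex (8.50 to 8.64), 7.62 in hippocampus (7.51 to 7.79) and 8.0 in the LGN (7.65 to 8.54). Neocortex here is the mean of layers 2, 3, 5 and 6. Of the excitatory markers, CAMK2A was dim (mean 4.53, below the array's median probe set) and TBR1 ranged only from 10.3 to 11.9. The excitatory average followed mainly SLC17A7 (4.73 to 9.55) and NEUROD6 (3.75 to 10.5), and is no count of excitatory neurons.

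Synaptic adhesion molecules span the cleft and bind partners on the facing membrane. On the axon side, neurexins (NRXN) and receptor phosphatases such as PTPRD and PTPRS are docking sites. On the dendrite side, neuroligins (NLGN) and LRRTM proteins bind neurexins, and SLITRK proteins bind the phosphatases. LRRC4C and LRRC4, also on that side, bind the netrin-G proteins NTNG1 and NTNG2. FLRT proteins and teneurins (TENM) bind latrophilins (ADGRL), and no side of the synapse is assumed for these. Contactins (CNTN) and their CNTNAP relatives are axonal immunoglobulin and neurexin-like proteins, and CADM, NCAM and many IGSF proteins adhere through immunoglobulin domains. The combination of these partners is thought to help match particular axons with particular target cells.

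Over the 57 groups, the members that carried most regional signal were SLITRK4, IGSF3, ADGRL2, SLITRK6, LRRTM4 and CNTN6. The distance between a gene's highest and lowest group mean was 5.70 log2 units for SLITRK4, from 10.81 in V1 layer 3 to 5.11 in koniocellular LGN. It was 5.42 for IGSF3, from 9.29 in TE layer 2 to 3.87 in CA3. The latrophilin ADGRL2 spanned 5.21, from 9.45 in A1 layer 2 to 4.25 in CA3, whereas its relative ADGRL1 spanned 0.90. SLITRK6 spanned 5.21, from 8.64 in magnocellular LGN to 3.43 in M1 layer 2. LRRTM4 spanned 5.06, from 9.27 in MT layer 2 to 4.21 in CA3, and the contactin CNTN6 spanned 5.05, from 8.73 in M1 layer 6 to 3.67 in V1 layer 4Ca. IGSF3, ADGRL2 and LRRTM4 all peaked in a layer 2 group and were lowest in CA3, with r over the group means of 0.766 for ADGRL2 and LRRTM4 and 0.73 for ADGRL2 and IGSF3. SLITRK4, SLITRK6 and CNTN6 peaked elsewhere.

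At the other end stood genes with nearly level profiles. All 4 LRFN genes, which encode postsynaptic leucine-rich-repeat proteins, spanned little: 0.78 for LRFN1, 0.84 for LRFN3, 0.91 for LRFN4 and 1.07 for LRFN5. LINGO4 spanned 0.52 and LINGO3 spanned 0.80, against 4.68 for LINGO2. Some of the narrow ranges belong to dim genes: CNTN4 did not exceed 3.64 and TENM1 did not exceed 4.55 in any group, below the level of the median probe set, 4.77 (all values are log2 intensity). Of the 55 members tested in any of the comparisons that follow, 33 were called in at least 1, beside 30.6% of the 10886 genes tested in any, and 4 dim ones (CNTN4, CNTNAP1, NLGN3 and TENM1) passed the filter on level in none. Among the 51 members whose mean lay above that level, the median range was 2.17, beside 1.25 for the 10300 genes that did so. Differences between groups made up a median of 75.8% of the variation over arrays in these 51 members and 52.9% in all 10300 genes.

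**Figure D1:**
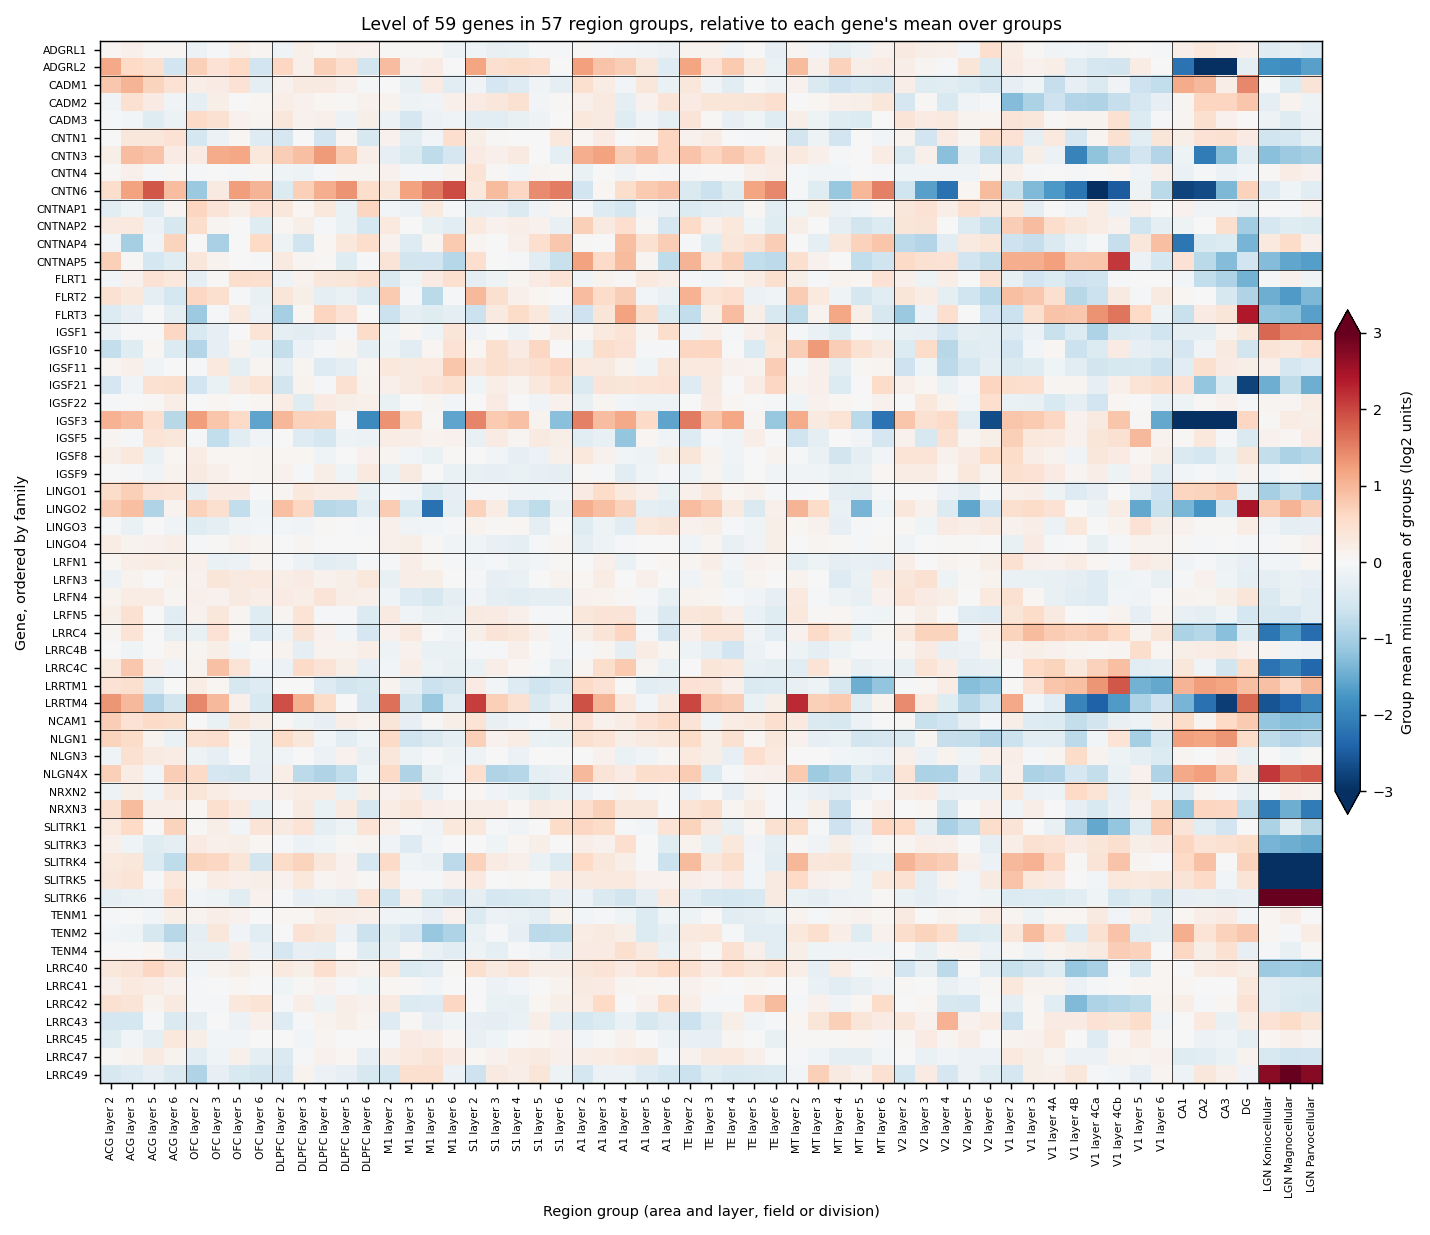
Heat map of the adhesion genes (rows, ordered by family) over the 57 region groups (columns), with colour showing the group's mean log2 level minus the gene's mean over groups, limited to 3 log2 units either way. The LGN columns stand apart for SLITRK4, SLITRK5 and SLITRK6, and the DG column stands apart from the CA columns for IGSF3, LRRTM4 and LINGO2.

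Within families the profiles often diverged. SLITRK4 and SLITRK5 had closely parallel profiles over the 57 group means (Pearson r 0.927, a description over groups that share animals), as did SLITRK3 and SLITRK4 (0.867) and LRRC4 and LRRC4C (0.829). By contrast, r was -0.197 for LRRTM1 and LRRTM4, -0.121 for ADGRL1 and ADGRL2, 0.00832 for FLRT2 and FLRT3 and -0.373 for CNTNAP4 and CNTNAP5. Among unrelated pairs, LRRC4C followed SLITRK4 (0.849), and LRFN5 followed FLRT2 (0.819) and CNTNAP2 (0.818). LRRC49, a subunit of the enzyme complex that adds glutamate chains to tubulin, ran opposite to SLITRK5 (-0.886). Within the 50 neocortical groups alone, the closest pairs included LRFN5 and CNTNAP2 (0.832) and LRRTM1 and CNTNAP5 (0.807), and FLRT3 ran opposite to SLITRK1 (-0.726). The closest pairs there reached down to r 0.729. SLITRK4 with SLITRK5, SLITRK3 or LRRC4C, and LRRC4 with LRRC4C, were not among them. LRRC49 and SLITRK5 were not among the most opposite pairs there, which began at -0.596.

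Layers 2 to 6 were compared in the 6 areas with undivided layers (A1, S1, DLPFC, MT, TE and V2), with each animal averaged over its areas (n = 4 animals). Of the 52 members tested, 11 differed over the layers, with adjusted p below 0.05 and a range of at least 1 log2 unit; the same held for 6.61% of all 10299 genes tested. LRRTM4 and NLGN4X were highest in layer 2, IGSF3 declined from layer 2 to layer 6, FLRT3 peaked in layer 4 and CNTN6 was raised in layers 5 and 6. All tests across genes used limma with Benjamini-Hochberg adjustment over all genes tested, and a gene is said to rise or fall in a layer where its level departed from the mean of the other layers by at least 1 log2 unit with adjusted p below 0.05.

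The postsynaptic neurexin and proteoglycan partner LRRTM4 was at 9.04, 8.71, 8.98 and 9.02 in layer 2 of males CR5C1 and 018G and females 98C096 and 99C018. In layer 5 the same animals gave 6.52, 6.74, 6.90 and 6.76, with no overlap between the layers. LRRTM4 rose in layer 2 by 1.71 ± 0.08 (log2, SE; 3.28-fold, adjusted p = 2.31e-12) and fell by 1.05 ± 0.08 (adjusted p = 1.97e-08) in layer 5. Without male CR5C1 the layer 5 change was -0.96, short of the threshold of 1.

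IGSF3, an immunoglobulin-domain membrane protein, had the widest range over the layers, 3.04 log2 units. Its 4 animals lay at 9.05, 8.98, 8.85 and 9.07 in layer 2 and at 6.07, 6.04, 6.01 and 5.68 in layer 6, so that every layer 6 value was below every layer 2 value. IGSF3 rose in layer 2 by 1.35 ± 0.08 (adjusted p = 1.11e-10) and fell by 2.45 ± 0.08 (5.46-fold, adjusted p = 1.54e-13) in layer 6. These values come from its brightest probe set, and the gene's other probe sets were dim and hardly followed it (r 0.136 and -0.0228 over the group means). With the mean over its probe sets the changes were 0.41 in layer 2 and -0.82 in layer 6.

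The neuroligin NLGN4X stood at 9.54, 9.60, 9.93 and 9.86 in layer 2, above every value of layers 3 to 6, and rose there by 1.03 ± 0.12 (adjusted p = 7.95e-07). That rise sits at the threshold: it was 0.94 without female 98C096, 0.97 without female 99C018 and 0.41 with the mean over its probe sets. FLRT3, a ligand of latrophilins, followed another course, with layer means of 9.0 in layer 2, 9.93, 10.61 in layer 4, 10.06 and 9.46 in layer 6. FLRT3 fell by 1.02 ± 0.07 (adjusted p = 3.56e-10) in layer 2, a change of -0.99 without female 98C096 and -0.98 without male 018G. Its relative FLRT2 was highest in layer 2, at 8.14, and lowest in layer 6, at 7.07.

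LINGO2, a leucine-rich-repeat and immunoglobulin protein, lay at 8.97, 8.68, 8.91 and 9.08 in layer 2 and at 7.23, 7.10, 7.55 and 7.06 in layer 5. It fell by 1.10 ± 0.10 (adjusted p = 9.48e-08) in layer 5. CNTN6, an axonal contactin, was the only member with a called rise in layer 6, by 1.10 ± 0.10 (adjusted p = 4.28e-08). Its animals lay between 6.25 and 6.90 in layers 2 to 4 and between 7.65 and 8.11 in layers 5 and 6, without overlap.

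Layer by layer, 4 of 52 members were called in layer 2 (2.71% of all genes), 2 in layer 5 (0.689%) and 2 in layer 6 (1.63%). In layers 3 and 4 limma called none (0.651% and 0.777% of all genes), though 24 members in each had an adjusted p below 0.05 with a smaller change (26.2% and 29.1% of all genes), and 25 and 28 had an unadjusted p below 0.05. CNTNAP5, SLITRK4, ADGRL2 and CNTNAP4 differed over the layers with ranges of 1.29, 1.22, 1.1 and 1.04 but passed in no single layer. Oligodendrocyte markers moved with depth too, from 9.74 in layer 2 (9.59 to 9.91) to 11.53 in layer 6 (11.45 to 11.69), and excitatory neuron markers from 7.02 (6.94 to 7.07) to 7.99 (7.88 to 8.11). Inhibitory neuron markers went from 9.01 in layer 2 (8.89 to 9.09) to 8.07 in layer 6 (7.93 to 8.19). Their part in the layer differences was not tested.

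**Figure D2:**
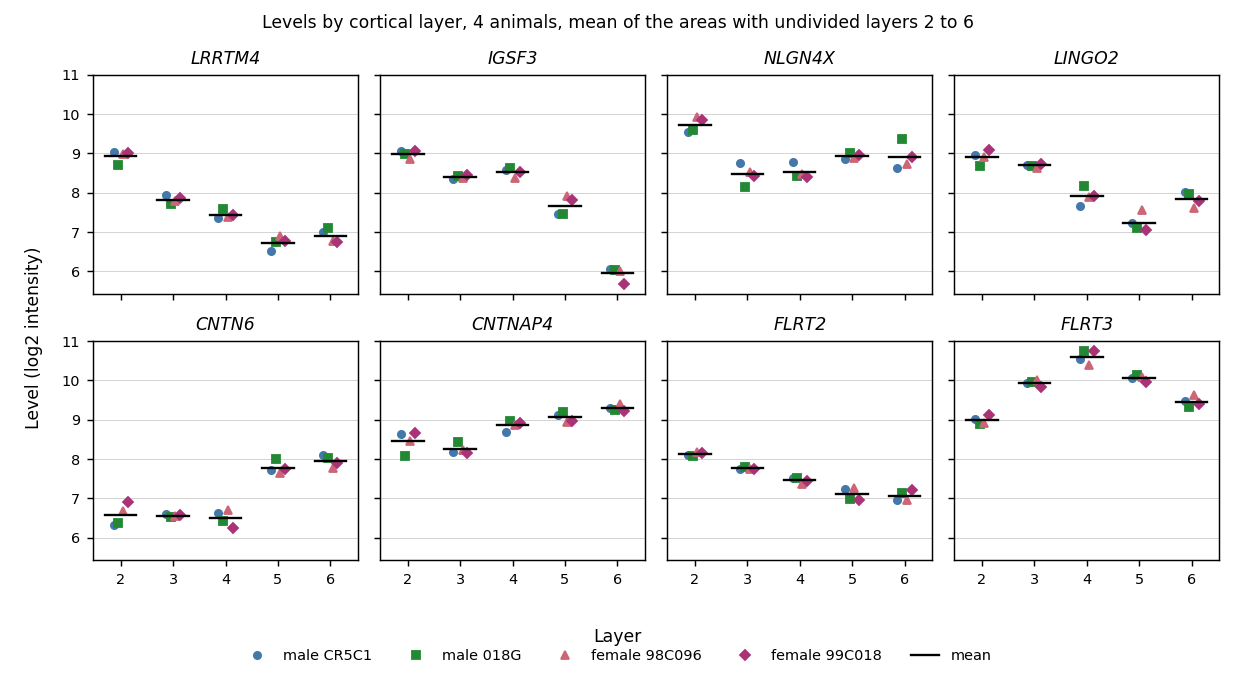
Log2 level of 8 adhesion genes in layers 2 to 6, averaged over the 6 areas with undivided layers; points are the 4 animals and the black line is their mean. LRRTM4, IGSF3 and NLGN4X are highest in layer 2, FLRT3 peaks in layer 4, and CNTN6 is higher in layers 5 and 6 than in layers 2 to 4.

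Among genes that work with these molecules, the secreted bridges C1QL2 and CBLN4 were also layered. C1QL2 rose in layer 2 by 2.27 ± 0.09 (adjusted p = 2.49e-13), and CBLN4, which links neurexins to their postsynaptic partners, rose there by 1.47 ± 0.08 (1.36e-11) and fell by 1.71 ± 0.08 (7.11e-12) in layer 6. NTNG1, the axonal ligand of LRRC4C, rose in layer 3 by 2.00 ± 0.09 (4.49e-11) and fell by 1.97 ± 0.09 (6.81e-12) in layer 6. PTPRD, a presynaptic phosphatase that SLITRK proteins bind, fell by 1.04 ± 0.07 (7.92e-10) in layer 2, while NTRK3 rose there by 1.05 ± 0.06 (6.46e-11). By list, layers differed for 3 of 10 secreted organisers tested, 5 of 14 presynaptic receptors and ligands outside the set, 1 of 8 other postsynaptic organisers, 0 of 12 intracellular scaffolds and 1 of 5 juxtaparanodal and nodal partners. The share over all genes was 6.61%. Of the scaffolds 10 had an unadjusted p below 0.05 in limma.

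Over all 10 areas, the deep layers 5 and 6 were set against the upper layers 2 and 3 in 5 animals. Layering was led by 4 genes named above: CNTN6 rose in the deep layers by 1.09 ± 0.09 (adjusted p = 2.55e-05), and LINGO2, LRRTM4 and IGSF3 fell by 1.23 ± 0.08 (3.07e-06), 1.53 ± 0.06 (2.70e-07) and 1.71 ± 0.05 (7.36e-08). These were the 4 of 52 members called, beside 2.12% of all genes. The CNTN6 change was 0.98 without male CR5C1, and that of IGSF3 was -0.59 with the mean over its probe sets. By adjusted p alone, whatever the size, 27 members differed (31.7% of all genes), 8 higher (16.8%) and 19 lower (14.9%) in the deep layers. Among partners, CBLN4 fell by 2.54 ± 0.06 (1.65e-08) in the deep layers, NTNG1 by 1.44 ± 0.07 (6.15e-07), C1QL2 by 1.39 ± 0.07 (6.17e-07) and PTPRF by 1.12 ± 0.07 (3.04e-06), while NTNG2 rose by 1.09 ± 0.06 (1.51e-06). Called were 2 of 10 secreted organisers tested, 0 of 9 other postsynaptic organisers, 0 of 12 scaffolds and 0 of 5 juxtaparanodal partners. Of the scaffolds 8 had an unadjusted p below 0.05 (limma).

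Across the 10 areas, with layers 2, 3, 5 and 6 averaged per animal, 7 of 52 members differed, beside 9.19% of all genes, and the contactins CNTN6 and CNTN3 led. CNTN6 was highest in M1 at 8.11 ± 0.57 (SD, n = 3), followed by ACG at 7.91 ± 0.25 (n = 4) and S1 at 7.84 ± 0.52 (n = 4), and was lowest in V2 at 6.47 ± 0.33 (n = 4) and V1 at 6.05 ± 0.36 (n = 4). The order from M1 to S1 lies within the spread, and so does that of V2 and V1. CNTN6 fell by 1.34 ± 0.11 (adjusted p = 6.78e-11) in V1 against the other 9 areas, the only member called there (1.19% of all genes). CNTN3 had a range over areas of 1.46, from 9.18 ± 0.43 in A1 (n = 3) to 7.74 ± 0.32 in V1 (n = 4). CADM1 ranged over 1.20, from 8.12 ± 0.10 in ACG to 6.96 ± 0.12 in V1 (n = 4 each), without overlap, and CADM2 over 1.13, with its lowest level, 8.10 ± 0.22, in V1. LRRTM4, LRRTM1 and IGSF10 had ranges of 1.04, 1.03 and 1.01. In the other 9 areas limma called no member against the rest, with between 15 and 35 members per area at an unadjusted p below 0.05. The share of all genes called there was 1.18% in ACG, 0.136% in OFC, 0.0485% in DLPFC, 0.252% in M1, 0.0388% in S1, 0.107% in A1, 0.0679% in TE, 0.136% in MT and 0.495% in V2.

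The front-to-back comparison set V1 and V2 against ACG, OFC and DLPFC. Both called members were contactins, beside 1.47% of all genes (1.27% lower in visual cortex). The contactin CNTN5 was left out of the set, so this does not describe contactins as a family. CNTN6 fell by 1.31 ± 0.10 (adjusted p = 1.22e-11) in visual cortex and CNTN3 by 1.02 ± 0.12 (2.31e-08). The spiked cre control probes varied little over arrays in A1, ACG, M1, S1, TE and V1 (SD 0.0708 to 0.111) and more in DLPFC, MT, OFC, V2, hippocampus and LGN (SD 0.174 to 0.268). With areas compared only within their own set of these, the changes were -1.45 and -1.01. CNTN3 is at the limit: its change was -0.81 without female 98C096, -0.98 without male 018G and -0.96 after quantile normalization. EFNB3 and PTPRS fell as well, by 1.33 ± 0.09 (1.56e-12) and 1.22 ± 0.10 (8.48e-11). Called were 0 of 10 secreted organisers tested, 0 of 9 other postsynaptic organisers, 0 of 12 scaffolds and 0 of 5 juxtaparanodal partners. In these lists 4, 6, 5 and 5 genes had an unadjusted p below 0.05 (limma). Spiked poly-A control probes were brighter in V1 (9.99) and V2 (9.83) than in the other areas and structures (8.47 to 9.33), and excitatory markers were lower in V1 and V2 (7.39 and 7.29) than in ACG, OFC and DLPFC (7.76 to 8.11). Their part in this difference was not tested.

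V1 was dissected into 8 layers, because its layer 4 is divided into 4A, 4B, 4Ca and 4Cb, the last pair receiving magnocellular and parvocellular input. Of 52 members, 18 differed over these layers in 4 animals, beside 14.7% of all 10218 genes tested. LRRTM4 (range 3.55), LRRTM1 (3.39), CNTN6 (2.97), CNTNAP5 (2.64), IGSF3 (2.36), SLITRK1 (2.30) and FLRT3 (2.27) ranged furthest. LRRTM1, CNTNAP5 and FLRT3 rose in 4Cb, LRRTM4 rose in layer 2, and SLITRK1 and CNTNAP4 rose in layer 6.

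LRRTM1, a postsynaptic neurexin partner, had its peak in the layer that receives parvocellular input. In 4Cb the animals CR5C1, 018G, 98C096 and 99C018 gave 10.36, 9.74, 9.23 and 9.32, and in layer 6 they gave 6.61, 5.88, 6.15 and 6.46. LRRTM1 rose in 4Cb by 1.79 ± 0.17 (adjusted p = 5.51e-08) and in 4Ca by 1.17 ± 0.17 (1.87e-05), and fell by 1.96 ± 0.17 (1.75e-08) in layer 5 and by 2.09 ± 0.17 (1.31e-09) in layer 6. Its layer means climbed from 7.83 in layer 2 through 8.22, 8.62, 8.69 and 9.12 to 9.67 in 4Cb before the drop to 6.39 and 6.27.

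LRRTM4 followed nearly the opposite course. It was at 8.49, 8.37, 7.23 and 8.53 in layer 2 and at 4.52, 5.17, 5.06 and 3.67 in 4Ca, where the mean, 4.61, is below the median probe set. LRRTM4 rose in layer 2 by 2.27 ± 0.24 (adjusted p = 1.45e-07) and fell by 1.78 ± 0.24 in 4Ca. In 4Ca, therefore, LRRTM1 rose and LRRTM4 fell in the same dissected layer.

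**Figure D3:**
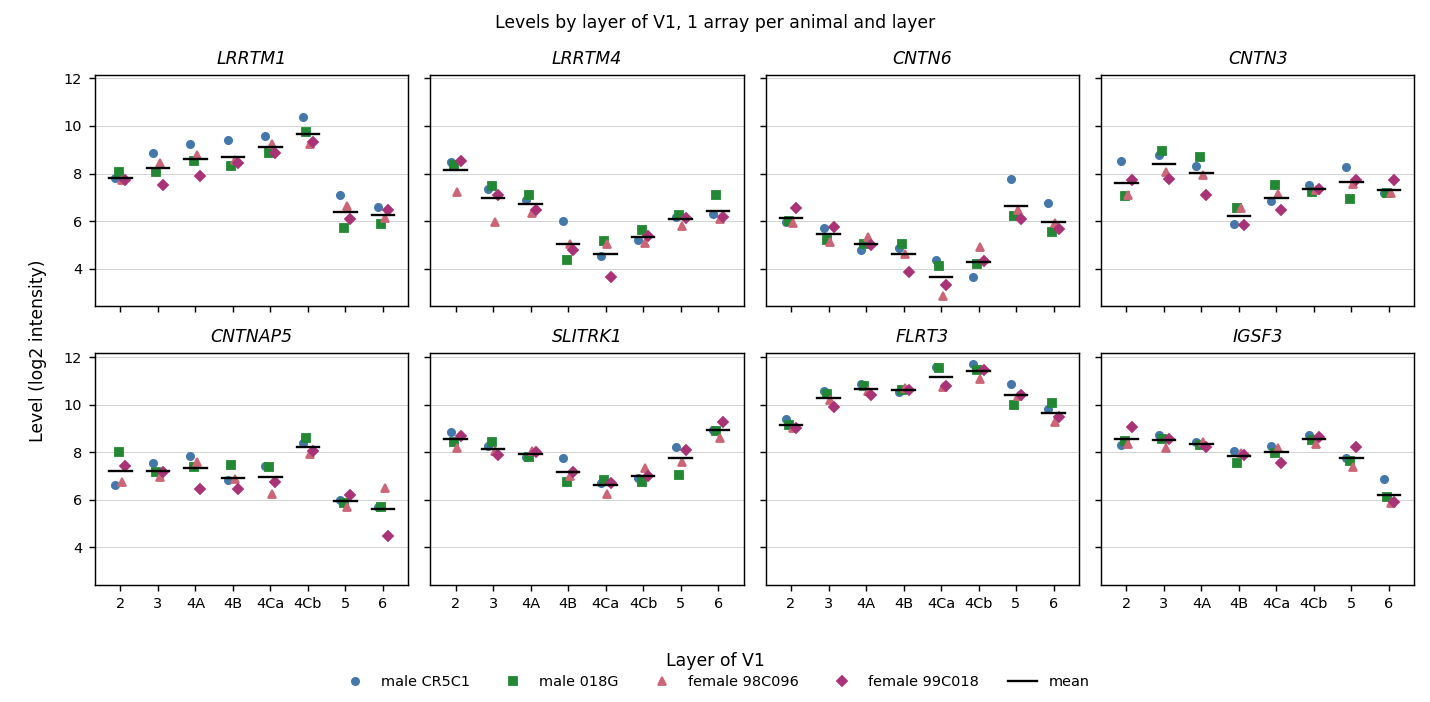
Log2 level of 8 adhesion genes in the 8 layers of V1; points are the 4 animals and the black line is their mean. LRRTM1 climbs to its peak in 4Cb and drops in layers 5 and 6, LRRTM4 is highest in layer 2 and lowest in 4Ca, and SLITRK1 is lowest in 4Ca and highest in layer 6.

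FLRT3 in V1 rose in 4Cb by 1.14 ± 0.13 (adjusted p = 9.98e-07), with animals between 11.07 and 11.72, and fell by 1.45 ± 0.13 (4.97e-09) in layer 2, with animals between 9.01 and 9.41. CNTNAP5 rose in 4Cb by 1.50 ± 0.25 (0.000203), where its animals lay between 7.91 and 8.62, and fell in layer 6, where they lay between 4.48 and 6.49, by 1.52 ± 0.25. Its relative CNTNAP4 rose in layer 6 by 1.25 ± 0.17 (8.23e-06), so these Caspr relatives moved in opposite directions there. With the mean over probe sets, of which the others are dim, the changes were 0.83 for CNTNAP5 in 4Cb, -0.81 in layer 6, and 0.42 for CNTNAP4. SLITRK1, a postsynaptic partner of presynaptic phosphatases, fell by 1.30 ± 0.16 (2.67e-06) in 4Ca and rose in layer 6 by 1.34 ± 0.16 (1.20e-06). Its 4Ca values of 6.23 to 6.83 did not reach its layer 6 values of 8.62 to 9.28.

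CNTN6 was nearly at the array's dim end in layer 4C of V1, at 4.38, 4.13, 2.87 and 3.31 in 4Ca, against 7.78, 6.23, 6.46 and 6.10 in layer 5. CNTN6 fell by 1.77 ± 0.26 in 4Ca and rose in layer 5 by 1.62 ± 0.26 (adjusted p = 0.000192), with male CR5C1 above the other 3 animals in layer 5. IGSF3 fell by 2.03 ± 0.15 (4.68e-10) in V1 layer 6, a change of -0.50 with the mean over its probe sets, and LINGO2 fell by 1.66 ± 0.19 (1.41e-06) in layer 5. By layer, the called members numbered 3 in layer 2 (3.94% of all genes), 1 in layer 3 (1.23%), 3 in 4B (1.69%), 4 in 4Ca (2.5%), 4 in 4Cb (1.77%), 4 in layer 5 (1.49%) and 5 in layer 6 (2.9%). Several of the smaller changes rest on 1 animal: LRRTM4 and FLRT2 in 4B changed by -0.91 and -0.98 without male 018G, CNTN6 in layer 2 by 0.80 without female 99C018, and CNTN6 in 4Cb by -0.74 without male CR5C1 (adjusted p = 0.131) and by -1.07 without male 018G (0.0806). CNTNAP5 in layer 5 had an adjusted p of 0.112 without male 018G and 0.0558 without male CR5C1, and CNTN3 in layer 3 one of 0.0578 to 0.0707 without female 98C096, male 018G or male CR5C1. In 4A limma called none (0.235%), and 11 members had an unadjusted p below 0.05 there. A layer 5 array of male 018G and the 4Ca arrays of females 98C096 and 99C018 were among the 5 arrays with a correlation to their group below 0.95. Without them, of the V1 changes only that of CNTN6 in layer 2 lost its call (1.02 with and 0.93 without).

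Among partner genes in V1, NTNG1 rose in 4Cb by 2.23 ± 0.19 (adjusted p = 1.07e-08) and 4Ca by 1.39 ± 0.19 (1.04e-05) and fell by 2.70 ± 0.19 (1.95e-10) in layer 6. PTPRS rose in layer 6 by 2.37 ± 0.21 (1.27e-08) and fell by 2.34 ± 0.21 (1.78e-08) in 4Ca. NXPH2, a secreted neurexin ligand, rose in layer 6 by 2.12 ± 0.19 (1.30e-08). Layers of V1 differed for 4 of 9 secreted organisers tested, 8 of 13 presynaptic receptors and ligands, 4 of 7 other postsynaptic organisers, 0 of 12 scaffolds and 1 of 5 juxtaparanodal partners. The share over all genes was 14.7%. Of the scaffolds 5 had an unadjusted p below 0.05 (limma). Oligodendrocyte markers were at 9.46 in V1 layer 2 (9.26 to 9.68) and between 10.87 and 11.28 from 4A to layer 6. Excitatory neuron markers lay between 6.74 in layer 2 (6.34 to 7.06) and 7.99 in layer 6 (7.59 to 8.22), with 6.78 in 4Ca (6.38 to 7.23). Inhibitory neuron markers lay between 8.85 in layer 3 (8.63 to 9.09) and 8.23 in layer 6 (7.80 to 8.59). The part of these markers was not tested.

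The deep-minus-upper difference of V1 was also set against that of the other areas, as a test of the difference itself. Limma called 0 of 52 members, beside 0.524% of all genes, with 14 members at an unadjusted p below 0.05. LRRTM1 had the largest test statistic: its deep-minus-upper change was -1.70 in V1 and -0.83 elsewhere, a difference of -0.87 ± 0.18 with an adjusted p of 0.0972. The next were IGSF9 (-0.55 ± 0.11, adjusted p = 0.101) and CADM2 (0.71 ± 0.15, adjusted p = 0.102).

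In the hippocampus, 16 of 52 members differed among CA1, CA2, CA3 and DG in 4 animals, beside 19.2% of all 10249 genes tested. The DG, whose granule cells receive the input from entorhinal cortex, was set against the CA fields. LRRTM4, LINGO2, ADGRL2 and FLRT3 rose there and CNTNAP2 and IGSF21 fell. With IGSF3 and CNTN6, which passed the filter on level only through DG and so had to differ, these make 8 of 52 members, beside 10.3% of all genes.

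IGSF3 was at 8.33, 8.13, 8.60 and 8.30 in DG of males CR5C1 and 018G and females 98C096 and 99C018. In CA1 it gave 3.92, 4.03, 3.76 and 3.99, in CA2 3.82, 4.45, 4.03 and 4.27, and in CA3 3.91, 4.07, 3.73 and 3.78. All CA values lay below the median probe set of the array. The mean over the CA fields, 3.98, is below the level filter of 4.78, so these values are given as a description, with no test.

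LRRTM4, whose proteoglycan partners include glypicans, was at 8.94, 8.74, 8.57 and 8.79 in DG. It lay at 6.00, 5.81, 5.32 and 5.42 in CA1, at 5.52, 4.71, 4.36 and 4.58 in CA2 and at 4.64, 4.57, 3.80 and 3.84 in CA3. LRRTM4 rose in DG by 3.88 ± 0.11 (14.7-fold, adjusted p = 2.62e-12), with no overlap between DG and any CA field. LINGO2 gave 10.37, 10.46, 10.80 and 10.61 in DG and no value above 7.82 in the CA fields. It rose by 3.67 ± 0.18 (12.8-fold, 4.77e-10).

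CNTN6 was at 7.58, 7.36, 7.65 and 7.32 in DG, between 3.82 and 4.20 in CA1, between 4.03 and 4.18 in CA2 and between 4.86 and 5.97 in CA3. Its mean over the CA fields, 4.52, is also below the filter, so no test is given for it either. ADGRL2 rose in DG by 2.95 ± 0.14 (7.74-fold). The latrophilin ligand FLRT3 lay at 12.40, 12.09, 12.24 and 12.09 in DG, above all CA values, and rose by 2.42 ± 0.13 (5.34-fold, adjusted p = 1.26e-09). So the latrophilin ADGRL2 and its ligand FLRT3 were both highest in DG within the hippocampus. IGSF21, a neurexin ligand associated with inhibitory terminals, was lowest in DG at 6.55, 6.95, 6.65 and 6.19 and highest in CA1 at 9.94, 9.68, 9.72 and 9.89. It fell by 2.40 ± 0.16 (5.29-fold, 1.54e-08) in DG. CNTNAP2, the Caspr relative of juxtaparanodes, fell by 1.15 ± 0.10 (2.79e-07), a change of -0.60 with the mean over its probe sets.

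**Figure D4:**
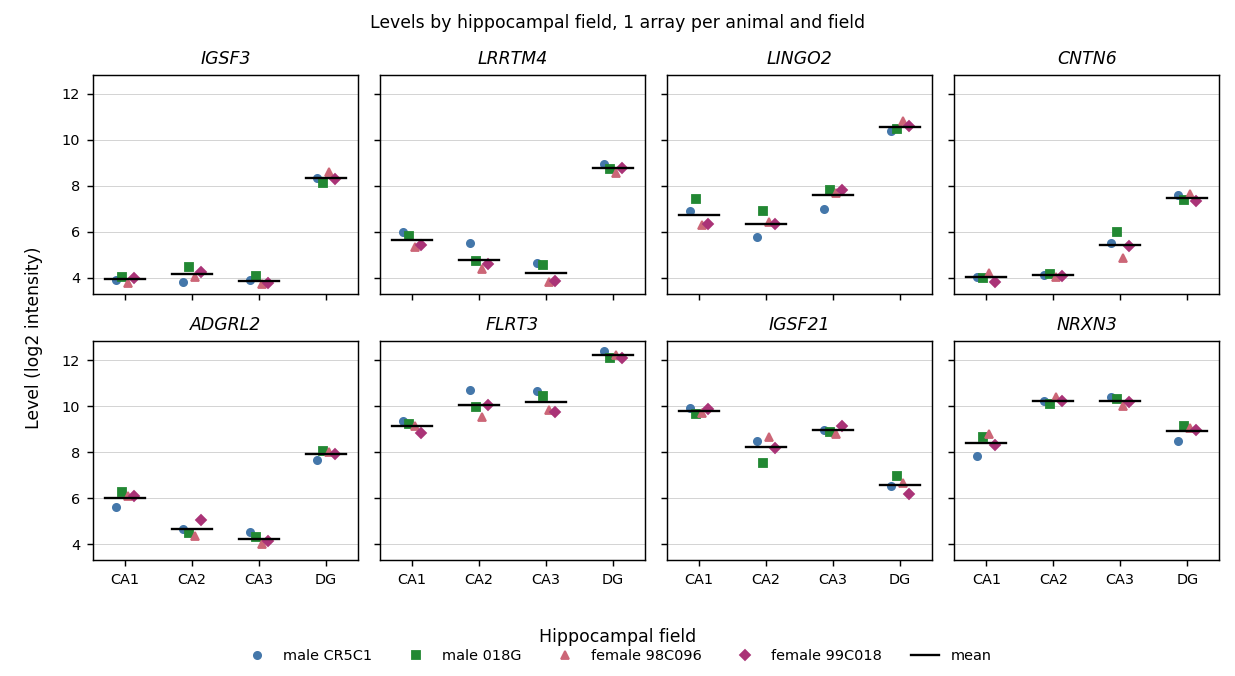
Log2 level of 8 adhesion genes in the CA1, CA2 and CA3 fields and in the dentate gyrus; points are the 4 animals and the black line is their mean. IGSF3, LRRTM4, LINGO2, CNTN6, ADGRL2 and FLRT3 are highest in DG, IGSF21 is highest in CA1 and lowest in DG, and NRXN3 is higher in CA2 and CA3 than in CA1 and DG.

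The neurexin NRXN3, the presynaptic receptor of neuroligins and LRRTMs, separated the CA fields. It gave 7.83, 8.67, 8.79 and 8.31 in CA1, 10.22, 10.10, 10.42 and 10.23 in CA2, 10.38, 10.31, 10.00 and 10.18 in CA3 and 8.50, 9.13, 9.03 and 8.98 in DG. CA2 and CA3 did not overlap with CA1 or DG. NRXN3 fell by 1.39 ± 0.14 in CA1 and rose in CA2 by 1.07 and in CA3 by 1.03; the last changes were 0.98 and 0.87 without male CR5C1, and 0.93 and 0.90 without DG. In each of these comparisons DG is one of the other fields, so a gene high in DG is low in every CA field.

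For that reason the CA fields were also compared among themselves, an alternative added after the data had been seen, and 9 of 50 members tested then differed, beside 6.34% of all 10267 genes tested. In CA1, CNTN3 rose by 1.54 ± 0.13, CNTNAP5 by 1.49 ± 0.15 and IGSF21 by 1.23 ± 0.14, while NRXN3 fell by 1.83 ± 0.16 and CNTNAP4 fell by 1.73 ± 0.15. The 9 include ADGRL2 (6.01 in CA1, 4.64 in CA2 and 4.25 in CA3) and LRRTM4 (5.63, 4.79 and 4.21). Outside CA1 both lay near or below the median probe set, 4.77. They passed the filter on level only through CA1 and so had to differ. Their levels are given as a description, with no test. CNTNAP4 and CNTNAP5 thus moved in opposite directions in CA1, with the signs the reverse of those in V1 layer 6. Both rest on the brightest probe set. Over the group means its r to the other probe sets was -0.167 to 0.717 for CNTNAP4 and 0.29 for CNTNAP5. In CA2, IGSF21 fell by 1.17 and CNTN3 by 1.38. In CA3, LINGO2 rose by 1.04 ± 0.18 and CNTNAP5 fell by 1.10. With DG among the other fields, the called members numbered 9 in CA1 (3.48% of all genes), 7 in CA2 (2.8%) and 4 in CA3 (2.94%), IGSF3 and CNTN6 included where they were called.

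Several genes of the partner lists also rose in DG, not all of them ligands of a member. The phosphatase PTPRS rose by 5.45 ± 0.16 (adjusted p = 2.62e-12) and the glypican GPC4, a proteoglycan ligand of LRRTM4, by 2.99 ± 0.12 (8.53e-11). IL1RAPL1, a postsynaptic partner of PTPRD, rose by 2.01 ± 0.14 (2.00e-08), EFNB3 by 1.40 ± 0.08 (2.79e-09) and NTNG1 by 1.35 ± 0.14 (9.31e-07). CBLN4 fell by 2.22 ± 0.15 (2.06e-08), UNC5B by 1.47 ± 0.27 (0.000257), EPB41L3 by 1.13 ± 0.13 (2.76e-06) and DLG2 by 1.01 ± 0.09 (1.74e-07). By list, DG differed for 5 of 14 presynaptic receptors and ligands (4 rose), 1 of 9 other postsynaptic organisers, 1 of 9 secreted organisers, 1 of 12 scaffolds and 1 of 5 juxtaparanodal partners. The share over all genes was 10.3%, and 1 of 9 and 1 of 12 lie near it. Excitatory markers averaged 7.16 in DG (7.04 to 7.27) and 8.67 to 9.14 in the CA fields, and oligodendrocyte markers 8.79 in DG (8.56 to 9.0) and 9.43 to 10.95 in the CA fields. Of 3 excitatory markers tested, only 1 was called lower in DG and none higher. Inhibitory markers averaged 7.84 in DG (7.65 to 8.04) and 7.19 to 7.90 in the CA fields. Their part in these differences was not tested.

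The hippocampus as a whole, with its 4 fields averaged, was then set against the neocortex (n = 4 animals). Neocortex was the mean over areas of layers 2, 3, 5 and 6 per animal, so layer 4 was left out. LRRTM1 and NLGN1 rose and LRRC4, IGSF21, CNTN3, CNTNAP4, LRRTM4, CNTN6, IGSF3 and ADGRL2 fell. These are 10 of 52 members, beside 5.83% of all 10309 genes tested; 2.15% of all genes rose and 3.68% fell. The largest changes were in ADGRL2, which was at 5.62, 5.77, 5.62 and 5.80 in hippocampus and 8.50, 8.60, 8.49 and 8.60 in neocortex, and in IGSF3, which was at 4.99, 5.17, 5.03 and 5.08 against 7.75, 7.85, 7.83 and 7.84. ADGRL2 fell by 2.84 ± 0.06 (adjusted p = 5.47e-11) and IGSF3 fell by 2.75 ± 0.07 (4.41e-10). Within the hippocampal average, DG alone held ADGRL2 at 7.66 to 8.06 and IGSF3 at 8.13 to 8.60. DG also held LRRTM4 at 8.57 to 8.94, above the 6.87 to 7.69 of neocortex. CNTN6 was at 7.32 to 7.65 in DG and 6.96 to 7.58 in neocortex. The falls of LRRTM4, CNTN6 and IGSF3 are thus falls in the CA fields, not in DG.

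NLGN1, a neuroligin of excitatory synapses, gave 9.66, 9.50, 9.33 and 9.46 in hippocampus and 8.35, 8.26, 8.45 and 8.50 in neocortex, and rose by 1.10 ± 0.10 (adjusted p = 4.35e-06). LRRTM1 rose by 1.38 ± 0.08 (1.22e-07) while LRRTM4 fell by 1.59 ± 0.24 (0.00017), so the pair moved in opposite directions. CNTN6 fell by 1.96 ± 0.09, CNTNAP4 and CNTN3 by 1.18 each, IGSF21 by 1.17 and LRRC4 by 1.00 ± 0.08. The LRRC4 change sits at the threshold and was -0.98 without female 99C018, -0.999 without male 018G or male CR5C1, and -0.96 against the neocortical areas of the same control-probe spread. The change of IGSF3 was -0.97 and that of CNTNAP4 was -0.30 with the mean over their probe sets. Among partners, C1QL2, EFNB3 and RTN4R, the Nogo receptor, rose by 1.63 ± 0.08 (1.96e-08), 1.55 ± 0.09 (1.71e-07) and 1.49 ± 0.09 (1.42e-07), while CBLN4 and NXPH2 fell by 2.18 ± 0.14 (2.71e-07) and 1.85 ± 0.08 (1.16e-08). Called were 3 of 10 secreted organisers tested, 1 of 9 other postsynaptic organisers, 0 of 12 scaffolds and 1 of 5 juxtaparanodal partners. The share over all genes was 5.83%. Of the scaffolds 9 had an unadjusted p below 0.05 (limma). Of the 5 inhibitory neuron markers 3 fell in hippocampus and none rose, and of 3 excitatory markers tested 2 rose and none fell. Their averages are given above, and their part in these differences was not tested.

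The LGN was set against the same neocortical arrays, again without layer 4. Of 52 members 19 were called, 4 rising and 15 falling, beside 10.8% of all genes (3.89% rose and 6.87% fell). The filter on level is a mean over mostly neocortical arrays. A gene low only in LGN can pass it, while one high only in LGN can fail it, as SLITRK6 did. The counts of rises and falls are therefore not on an equal footing. The median change was -0.39 over the members tested and -0.00235 over all genes. By family, 3 of 4 SLITRK genes tested, both LRRC4-family genes tested (LRRC4 and LRRC4C), 2 of 3 FLRT genes, 1 of 2 latrophilins and the neurexin tested fell, whereas none of the 3 CADM, 4 LRFN, 4 LINGO and 2 TENM genes tested was called.

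SLITRK4 was at 5.09, 5.30, 5.26 and 5.41 in LGN of males CR5C1 and 018G and females 98C096 and 99C018. It was at 9.93, 10.09, 9.84 and 10.01 in neocortex and at 10.38, 10.31, 10.21 and 10.35 in hippocampus. SLITRK4 fell by 4.70 ± 0.07 (26.0-fold, adjusted p = 9.15e-13) in LGN, with no overlap between LGN and the other structures. SLITRK5 gave 6.81, 7.07, 7.22 and 7.31 in LGN and no value below 10.48 in neocortex, and fell by 3.53 ± 0.11 (11.5-fold, 1.59e-10). SLITRK3 fell by 1.47 ± 0.09 (2.77-fold, 4.92e-08), and SLITRK1 was lower by 0.94 ± 0.12, short of the threshold.

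SLITRK6 lay at 8.34, 8.26, 7.81 and 8.70 in LGN, but between 3.77 and 3.82 in neocortex and between 3.73 and 3.80 in hippocampus, below the median probe set. Because its mean over all arrays was low, it did not pass the filter on level, and its levels are given as a description, with no fold or test. The gene's other probe sets followed the one used (r 0.948 and 0.981). In the LGN, then, SLITRK6 was high where its relatives SLITRK3, SLITRK4 and SLITRK5 were low.

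**Figure D5:**
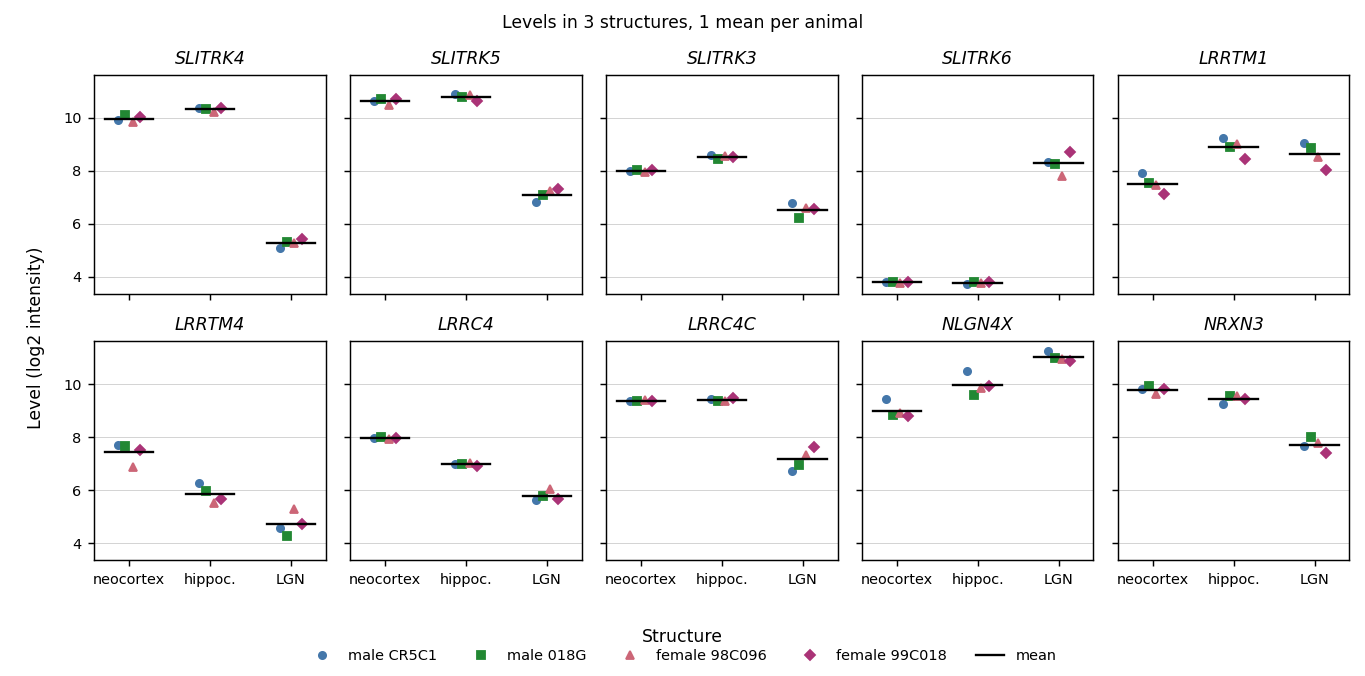
Log2 level of 10 adhesion genes in neocortex, hippocampus and LGN; points are the 4 animals with samples of every structure and the black line is their mean. SLITRK4 and SLITRK5 drop in LGN while SLITRK6 is highest there, LRRTM4 and LRRTM1 differ in opposite directions, and LRRC4, LRRC4C and NRXN3 are lowest in LGN.

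The neuroligin NLGN4X rose in LGN, at 11.25, 10.98, 10.93 and 10.87 there against 9.45, 8.82, 8.92 and 8.80 in neocortex. The change was 2.01 ± 0.09 (4.03-fold, adjusted p = 3.87e-09), and 0.69 with the mean over its probe sets, which follow each other poorly (r 0.281 and -0.0462). LRRTM1 rose by 1.11 ± 0.08, with LGN animals at 9.06, 8.86, 8.51 and 8.03, while LRRTM4 fell by 2.73 ± 0.24, with LGN animals at 4.57, 4.27, 5.28 and 4.72. The LGN mean of LRRTM4, 4.71, is below the median probe set, so the size of its fall rests on a dim level. The same animals gave 7.90, 7.54, 7.46 and 7.14 for LRRTM1 and 7.69, 7.68, 6.87 and 7.53 for LRRTM4 in neocortex. V1 layer 4Cb, which is not part of that neocortical average, had LRRTM1 at 9.67, above its LGN values. The hippocampal and LGN changes were both measured against the same neocortical arrays: LRRTM1 rose and LRRTM4 fell in each. In the hippocampus that fall of LRRTM4 is one of the CA fields, since DG lay at 8.57 to 8.94.

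Among netrin-G receptors, LRRC4C fell by 2.22 ± 0.13 in LGN and LRRC4 fell by 2.18 ± 0.08. Their LGN values were 6.74, 6.96, 7.33 and 7.63 for LRRC4C, against 9.37 to 9.42 in neocortex, and 5.65, 5.79, 6.06 and 5.68 for LRRC4, against 7.94 to 7.99. NRXN3 fell by 2.08 ± 0.10 (4.22-fold, adjusted p = 6.01e-09), with LGN animals between 7.41 and 8.0. ADGRL2 fell by 2.10 ± 0.06, and its ligands FLRT2 and FLRT3 fell by 1.67 ± 0.07 (3.07e-09) and 1.16 ± 0.11 (2.14e-06). CNTNAP5 fell by 1.48 ± 0.08, CNTN3 by 1.33, IGSF21 by 1.42 and NCAM1 by 1.33 ± 0.07. The LGN mean of CNTNAP5, 4.60, is below the median probe set. With the mean over probe sets the change was -0.76 for CNTNAP5 and -0.31 for NCAM1, which has 10 probe sets with r from -0.427 to 0.934 to the one used.

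LRRC49, no adhesion gene, had the largest rise among the members tested in LGN. It lay at 12.36, 12.67, 12.39 and 12.70 in LGN and 9.40, 9.54, 9.47 and 9.51 in neocortex, a rise of 3.05 ± 0.10 (8.29-fold, adjusted p = 2.92e-10). IGSF1 rose by 1.61 ± 0.15 and LRRC40 fell by 1.16. The other probe sets of LRRC40 were dim and did not follow the one used (r -0.401 to -0.127 over the group means).

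NTNG1, the ligand of LRRC4C, rose in LGN by 4.62 ± 0.08 (adjusted p = 1.95e-12), the reverse of its receptor. The other genes named from the list of presynaptic receptors and ligands fell: UNC5A by 3.56 ± 0.08 (2.37e-11), EPHB1 by 2.62 ± 0.11 (2.00e-09), EFNB3 by 2.61 ± 0.09 (6.69e-10), and beyond these PTPRS by 1.58 ± 0.20 (2.83e-05). The name of the list does not fix the side of the synapse for each of its genes. The list had 1 rise and 6 falls among 14 tested. Among scaffolds beneath the postsynaptic membrane 5 of 12 fell and none rose, among them HOMER1 by 2.17 ± 0.10 (6.39e-09), DLG1 by 1.93 ± 0.09 (7.38e-09), DLGAP1 by 1.93 ± 0.07 (9.09e-10) and DLG2 by 1.26 ± 0.09 (2.12e-07). Of the secreted organisers CBLN4 fell by 3.81 ± 0.14 (8.71e-10) and NXPH2 by 2.01 ± 0.08 (1.51e-09), 2 of 10. NTRK3 fell by 1.15 ± 0.09 (3.21e-07), 1 of 9 other postsynaptic organisers. The juxtaparanodal genes KCNA1 and EPB41L3 rose by 1.34 ± 0.09 (1.37e-07) and 1.12 ± 0.08 (3.28e-07), 2 of 5. The share over all genes was 10.8% (3.89% rose and 6.87% fell), and 1 of 9 lies near it. On average the oligodendrocyte markers were higher and the excitatory markers lower in LGN than in neocortex, with the values and limits given above. Of 3 excitatory markers tested 2 fell, and of the 5 inhibitory markers 2 fell and 1 rose. Their part in these differences was not tested.

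Within the LGN, the divisions differed little for these genes. Limma called 0 of 51 members, beside 0.399% of all 10276 genes tested, with 12 members at an unadjusted p below 0.05 over the 3 divisions. An adjusted p below 0.05 (3.07% of all genes) was reached by CADM1 (range 0.80, adjusted p = 0.0291), IGSF11 (0.65, 0.0355) and IGSF21 (0.72, 0.0493), all short of 1 log2 unit. IGSF11 was higher in the koniocellular division by 0.60 ± 0.12 (adjusted p = 0.0187). IGSF21 was higher in the magnocellular division by 0.72 ± 0.16 (0.0366), where CADM1 was lower by 0.61 ± 0.13 (0.0422).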

How the data were processed

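Per the file headers, the authors deposited log10 normalized probe-set intensities from Affymetrix Rhesus arrays, made with RMA within amplification batches in Matlab and rescaled probe by probe on common control samples. Per the labels, 5 ng of total RNA was amplified in 2 cycles. Which batch an array belonged to is not given in the sources used here. The values were turned into log2 by multiplying with log2(10), although a log2 file had been assumed when the tests were set. Of 52865 probe sets, 24969 have 1 symbol, 361 several and 27535 none. The brightest probe set stood for a gene; 36 members have only 1, and 58 of 59 symbols are in the RefSeq list. Control arrays (27) were not used.

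Tests used limma 3.58.1 in R 4.3.3 with the animal as a block, on genes whose mean exceeded that of the median probe set; 49 members passed in all 10 comparisons, 6 in some and 4 (CNTN4, CNTNAP1, NLGN3 and TENM1) in none. A call needs adjusted p below 0.05 and 1 log2 unit. Counts at an unadjusted p below 0.05 are given without the share over all genes, so they show no excess. Animals, named in the sample titles, pair the arrays: deviations from the group means correlated at a median of 0.134 within an animal and -0.0379 between animals. P-values measure how much the differences vary from animal to animal, since the pairing removes each animal's general level. Fits were tested on simulated data. Members and lists were chosen with earlier results of these data known. Named are the called members, up to 6 in each direction per comparison, or else the 3 with the largest statistic, up to 4 called genes per partner list, and family members with opposite calls; others were named after their values were seen. The lists measured 10 of 15 secreted organisers, 15 of 17 presynaptic, 10 of 12 other postsynaptic, 12 of 17 scaffold and 7 of 8 juxtaparanodal genes. The number of arrays limits the precision. Alternatives were the mean over probe sets, no level filter, quantile normalization, no replicate block, leaving out each animal, areas within their set of control-probe spread and, chosen after seeing the data, neocortex of the wide set only, V1 without low-correlation arrays and CA fields alone.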

Additional observations from a re-analysis of the deposited data

Results flagged for a closer look

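Dixon's test was run on the 4 animals' own changes for 96 results, and 5 had an animal apart from the other 3; chance gives about 1 in 20. In layer 2, LRRTM4 was higher by 1.42 in male 018G and by 1.77 to 1.84 in the other animals. In layer 6, IGSF3 was at -2.78 in female 99C018 and between -2.38 and -2.30 in the others. In V1 layer 6, LRRTM1 was at -1.52 in female 99C018 and between -2.31 and -2.23 in the others. In CA1, CNTN3 was higher by 0.67 in male CR5C1 and by 1.17 to 1.26 in the others. In hippocampus against neocortex, LRRTM1 was higher by 1.53 in female 98C096 and by 1.30 to 1.34 in the others. All 4 animals shared the direction in each of these 5 results.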

How the results depend on the processing

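None of the reported results changed direction under any alternative run. The count of members differing over layers 2 to 6 was 6 with the mean over probe sets, against 11. Visual against frontal areas gave 1 call after quantile normalization, against 2, and 1 to 2 when each animal was left out (1 without female 98C096 or without male 018G). The hippocampal fields gave 9 of 50 tested without DG, added after seeing the data, beside 6.34% of all genes. These include ADGRL2 and LRRTM4, which passed the filter only through CA1. With DG the fields gave 16 of 52 (19.2%). Of the named results, the mean over probe sets took 17 of 89 below the call rule, among them IGSF3, NLGN4X, NCAM1, CNTNAP4 and CNTNAP5; quantile normalization took 4 of 96, and leaving out 018G or CR5C1 took 8 each of 96. No level filter took 0 of 96. The fit with no replicate block was run for 92 of the 96 and changed none of those 92 calls; the 4 results of deep against upper layers (CNTN6, LINGO2, LRRTM4 and IGSF3) have no fit without the pairing. Areas compared within their set of control-probe spread lost none of 3. The cause of these losses was not tested. Detection calls were not used, and whether levels below the median probe set, such as those of IGSF3 in the CA fields and SLITRK6 outside the LGN, exceed background was not tested.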
